A study of Mus musculus with 12 samples.

Results

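The Rab, Arf and COPII genes encode the small GTPases and coat proteins that form, route and fuse transport vesicles. A rule on gene symbols took all autosomal protein-coding mouse genes of the RefSeq table for mm10 (GRCm38.p6) that are named Rab with a number, Arf1 to Arf6, Sar1a, Sar1b, or Sec with the numbers 13, 16, 22, 23, 24 or 31. It found 78 genes of 20661, namely 55 Rabs, 6 Arfs, both Sar1 genes, 11 genes of the COPII coat and its scaffold, and 4 other Sec genes that the symbols bring in (*Sec22a*, *Sec22b*, *Sec22c* and *Sec23ip*). The set was chosen by a reading of these same H3K36ac peak lists, so the counts at its genes are a description and carry no test.

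H3K36ac, acetylation of lysine 36 of histone H3, was mapped by ChIP-seq in testis cells enriched for spermatogonia from male mice at postnatal day 5 (Pnd 5), on a 129S1/Sv background. There were 3 WT samples and 3 samples of mice lacking the deacetylase SIRT7 in all cells (*Sirt7*-/-, S7KO in the labels), untreated, with 50000 cells per sample. Replicates were numbered 2, 3 and 4 in each genotype, and each sample came from a different mouse. Cells were enriched by plating, which leaves some somatic cells, and were not sorted.

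Small GTPases of these families switch between a form bound to GDP, which is held soluble or loosely attached, and a form bound to GTP, which sits on a membrane and recruits effectors. SAR1 starts the COPII coat on the endoplasmic reticulum (ER), where SEC23 and SEC24 form the inner layer and SEC13 and SEC31 the outer cage, while ARF1 starts the COPI coat at the Golgi. Each RAB marks its own membrane, and dividing germ cells need this traffic to add membrane and to bring receptors to the surface. Acetylated H3K36 is found mainly just downstream of the starts of active genes.

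Promoters of 4 pairs of close relatives are shown because each pair holds 1 gene with a peak in all 3 *Sirt7*-/- samples and 1 gene with a peak in none of the 6 samples. The windows run from 250 bases before to 50 bases after the RefSeq start (GRCm38.p6, the assembly of mm10), 5′ to 3′ on the strand of the gene, and capitals mark CpG dinucleotides. They are sequence of the reference genome, not of the mice used. *Sar1a* (chr10:61680035-61680334, plus strand) and *Sar1b* (chr11:51763413-51763712, plus strand) encode the GTPases that start the COPII coat.
Sar1a: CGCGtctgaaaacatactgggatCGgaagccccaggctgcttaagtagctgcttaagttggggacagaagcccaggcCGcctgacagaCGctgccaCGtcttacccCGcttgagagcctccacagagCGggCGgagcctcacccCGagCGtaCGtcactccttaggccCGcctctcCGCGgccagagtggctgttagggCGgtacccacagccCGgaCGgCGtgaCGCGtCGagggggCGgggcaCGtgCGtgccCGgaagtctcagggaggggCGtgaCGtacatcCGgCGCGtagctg
Sar1b: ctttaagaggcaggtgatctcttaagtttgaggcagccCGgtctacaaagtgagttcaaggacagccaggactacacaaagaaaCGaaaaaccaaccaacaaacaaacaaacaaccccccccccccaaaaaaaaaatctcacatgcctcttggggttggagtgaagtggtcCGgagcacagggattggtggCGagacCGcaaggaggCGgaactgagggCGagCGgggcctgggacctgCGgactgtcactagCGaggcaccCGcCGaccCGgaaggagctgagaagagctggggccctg

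*Rab1a* (chr11:20201162-20201461, plus strand) and *Rab1b* (chr19:5106947-5107246, minus strand) encode the GTPases of traffic from ER to Golgi.
Rab1a: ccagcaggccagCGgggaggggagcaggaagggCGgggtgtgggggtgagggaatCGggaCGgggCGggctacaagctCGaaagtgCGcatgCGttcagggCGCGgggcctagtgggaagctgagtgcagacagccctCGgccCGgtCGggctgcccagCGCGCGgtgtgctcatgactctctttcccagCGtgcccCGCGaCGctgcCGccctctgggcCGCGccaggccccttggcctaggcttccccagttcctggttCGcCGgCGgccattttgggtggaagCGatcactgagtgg
Rab1b: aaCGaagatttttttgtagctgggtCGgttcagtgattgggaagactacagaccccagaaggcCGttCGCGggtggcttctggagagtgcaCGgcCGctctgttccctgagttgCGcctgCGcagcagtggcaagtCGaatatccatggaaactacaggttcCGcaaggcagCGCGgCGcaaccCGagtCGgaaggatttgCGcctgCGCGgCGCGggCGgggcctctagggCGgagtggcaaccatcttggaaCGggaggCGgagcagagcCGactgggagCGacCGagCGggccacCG

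*Rab5a* (chr17:53478984-53479283, plus strand) and *Rab5c* (chr11:100738166-100738465, minus strand) encode GTPases of the early endosome.
Rab5a: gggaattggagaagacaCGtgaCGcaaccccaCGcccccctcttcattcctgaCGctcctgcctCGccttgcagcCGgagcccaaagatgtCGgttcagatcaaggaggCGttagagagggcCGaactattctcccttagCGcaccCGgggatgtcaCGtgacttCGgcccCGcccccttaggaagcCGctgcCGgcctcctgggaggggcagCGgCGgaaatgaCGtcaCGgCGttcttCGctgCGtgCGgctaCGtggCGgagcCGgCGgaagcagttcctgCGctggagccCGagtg
Rab5c: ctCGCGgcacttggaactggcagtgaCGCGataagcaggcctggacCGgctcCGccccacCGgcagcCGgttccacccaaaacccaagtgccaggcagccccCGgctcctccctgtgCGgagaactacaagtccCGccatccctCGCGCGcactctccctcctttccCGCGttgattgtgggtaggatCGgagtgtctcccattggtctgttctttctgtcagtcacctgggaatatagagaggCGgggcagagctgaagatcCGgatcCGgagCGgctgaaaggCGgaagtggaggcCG

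*Arf1* (chr11:59228218-59228517, minus strand) and *Arf2* (chr11:103966475-103966774, plus strand) encode class I Arfs, which recruit coats to the Golgi.
Arf1: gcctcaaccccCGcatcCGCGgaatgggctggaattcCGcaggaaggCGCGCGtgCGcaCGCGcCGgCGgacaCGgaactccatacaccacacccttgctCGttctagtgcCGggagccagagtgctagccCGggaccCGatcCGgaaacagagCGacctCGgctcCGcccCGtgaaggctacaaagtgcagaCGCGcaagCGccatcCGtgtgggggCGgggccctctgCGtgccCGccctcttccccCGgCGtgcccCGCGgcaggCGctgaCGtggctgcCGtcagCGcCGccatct
Arf2: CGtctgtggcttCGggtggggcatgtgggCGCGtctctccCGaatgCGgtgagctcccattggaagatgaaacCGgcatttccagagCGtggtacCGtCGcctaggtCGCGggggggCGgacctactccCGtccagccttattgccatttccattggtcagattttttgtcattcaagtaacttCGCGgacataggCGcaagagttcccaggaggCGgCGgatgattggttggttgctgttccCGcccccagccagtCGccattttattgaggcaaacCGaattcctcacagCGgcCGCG

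The *Sar1a* window held 31 CpGs and the *Sar1b* window 13, and the *Sar1b* window holds a stretch made up mostly of A and C. The other pairs were closer, with 27 CpGs at *Rab1a* and 30 at *Rab1b*, 30 at *Rab5a* and 23 at *Rab5c*, and 38 at *Arf1* and 25 at *Arf2*. In CpG content, *Rab1b* was thus as rich as its called relative.

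A gene was counted as called in a sample when any part of a deposited peak lay within 3000 bp of its start. The lists held 2840, 2045 and 2591 peaks in *Sirt7*-/- replicates 2, 3 and 4 and 906, 64 and 294 peaks in the WT replicates of the same numbers, so that over all genes more starts were called in each *Sirt7*-/- than in any WT sample. They hold no read coverage. A weaker mark in each cell and a mark in fewer cells cannot be told apart. A start without a peak may still carry the mark below the calling limit, and the number of reads left in each list after filtering is not known here. Of 12 germ cell markers, 5 (*Zbtb16*, *Gfra1*, *Etv5*, *Uchl1* and *Dazl*) had a peak in 1 *Sirt7*-/- sample each and none in WT, and 2 of 6 Sertoli markers (*Sox9* and *Dhh*) had a peak in 1 *Sirt7*-/- sample each. None of the 6 Leydig and interstitial, 2 peritubular and 3 macrophage markers had one, so the lists neither identify the cells nor show which cells gave a peak. *Sirt7* itself had no peak within this distance in any of the 6 samples, and peaks cannot check the deletion.

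Of the 78 traffic genes, 28 (35.9%) had a peak in at least 1 *Sirt7*-/- sample, against 20.3% of the 20256 autosomal protein-coding starts of known strand. Replicate 2 called 18 of them (23.1%, all starts 13.9%), replicate 3 also 18 (23.1%, all starts 10.3%) and replicate 4 called 19 (24.4%, all starts 12.4%), a mean of 18.3 ± 0.577 genes (SD, n = 3). In WT, replicate 2 called 4 (5.13%, all starts 4.64%), replicate 3 called 0 (all starts 0.336%) and replicate 4 called 3 (3.85%, all starts 1.43%), a mean of 2.33 ± 2.08 (SD, n = 3). The genotypes did not overlap, as was also so for all starts. The smallest two-sided p that 3 samples against 3 allow is 0.1, and no test was made because the set was picked with these lists in view. The number of traffic genes called was nearly the same in the 3 *Sirt7*-/- samples although their lists differed in length, and the share was above that of all starts in each.

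**Figure D1:**
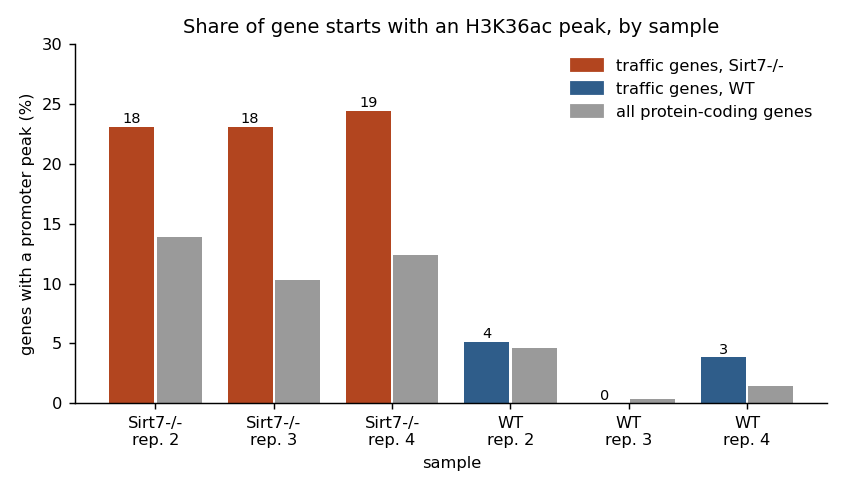
Share of gene starts (%) with an H3K36ac peak within 3000 bp, for each of the 6 samples; coloured bars are the 78 traffic genes, with the number called above the bar, and grey bars are all 20256 protein-coding starts. The traffic genes reach 23.1 to 24.4% in the *Sirt7*-/- samples and 0 to 5.13% in WT.

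At least 2 *Sirt7*-/- samples called 17 traffic genes (21.8%, all starts 10.9%), and all 3 called 10 (12.8%, all starts 5.39%). Of the genes called in any *Sirt7*-/- sample, 35.7% of the traffic genes and 26.6% of all starts were called in all 3. The 10 were *Arf1*, *Arf3*, *Arf4*, *Rab1a*, *Rab2a*, *Rab5a*, *Rab10*, *Rab12*, *Rab14* and *Sar1a*. Of these, *Arf4*, *Rab1a*, *Rab2a*, *Rab12* and *Sar1a* had no WT peak, which makes 5 genes (6.41%, all starts 2.59%). The other 5 had a peak in 1 WT sample each. A WT peak in any sample was found at 7 genes (8.97%, all starts 5.43%), the last being *Rab35* and *Sec24c*, each called in replicate 4 of both genotypes. No traffic gene was called in WT alone, and neither were most genes, since 0.504% of all starts were called so. No peak in any sample was found at 50 of the 78 (64.1%), against 79.2% of all starts.

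**Figure D2:**
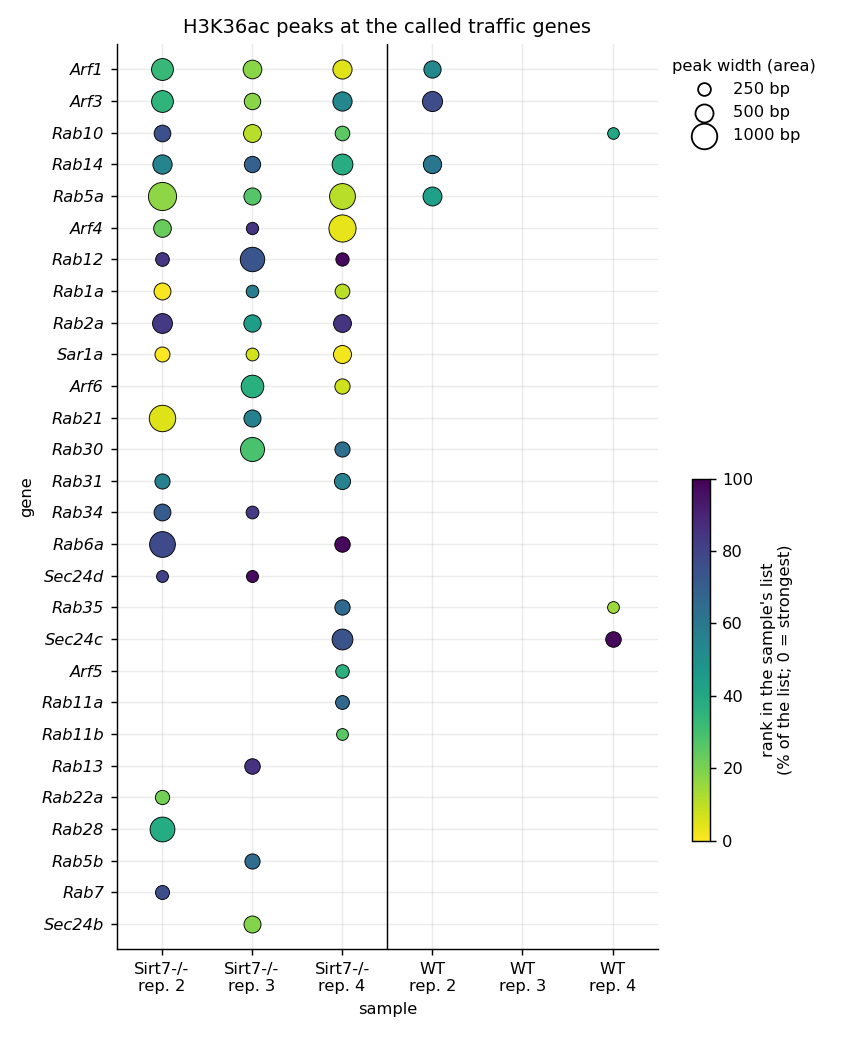
H3K36ac peaks at the 28 traffic genes (rows) with a peak in any sample (columns); the area of a circle is the peak width in bp and its colour the rank in the list of that sample, from 0 (strongest) to 100%. The WT columns hold 7 circles in all, with none in replicate 3, which called 0.336% of all starts, and the *Sar1a* circles are at the yellow (strong) end in all 3 *Sirt7*-/- columns.

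Between ER and Golgi, *Sar1a* had the strongest peaks of the set. The gene lies on the plus strand of chromosome 10, from 61680285 to 61693297. Its peak ranked 19 of 2840, 138 of 2045 and 46 of 2591 by the authors' -log10 q in *Sirt7*-/- replicates 2, 3 and 4, where rank 1 is the strongest. In the same order the peaks covered bases 61680315 to 61680658, 61680333 to 61680584 and 61680315 to 61680811, so that they began 30 to 48 bp downstream of the start. The widths were 344, 252 and 497 bp, and the authors' fold over input was 6.35, 6.04 and 5.96. A non-coding gene, *1700022H01Rik*, starts 5 bp further downstream, so the peaks cannot be given to 1 of the 2 starts. *Sar1b*, from 51763663 to 51791953 on chromosome 11, had no peak in any of the 6 samples.

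*Rab1a*, the GTPase that tethers vesicles arriving from the ER, lies on the plus strand of chromosome 11 with its start at 20201412. Its peaks spanned 439, 243 and 334 bp in *Sirt7*-/- replicates 2, 3 and 4 and ranked 25 of 2840, 1190 of 2045 and 271 of 2591. The place was steady, with midpoints 223, 246 and 213.5 bp downstream of the start, while the rank was not. *Rab2a*, which acts between ER and Golgi, was called in the same 3 samples with peaks of 605, 458 and 489 bp at 633, 582.5 and 512 bp downstream, and ranks of 2370, 919 and 2189. These were weak calls in 2 of the 3 lists. Of the 11 Rabs of ER and Golgi, 4 (36.4%, all starts 20.3%) were called in at least 1 *Sirt7*-/- sample, the others being *Rab6a* of transport within the Golgi and *Rab30*, a Golgi Rab, each in 2 *Sirt7*-/- samples. The *Rab6a* peaks of *Sirt7*-/- replicates 2 and 4 did not overlap. The one in replicate 4 and both *Rab30* peaks lay nearer to the start of another gene. *Rab1b*, *Rab2b* and *Rab6b* had no peak in any sample.

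In the COPII coat, 3 of the 11 coat and scaffold genes (27.3%) were called in at least 1 *Sirt7*-/- sample (all starts 20.3%) and 1 (9.09%) in at least 2 (all starts 10.9%). None of *Sec13*, *Sec31a* and *Sec31b* of the outer cage was called in any sample, nor were *Sec23a* and *Sec23b*, nor the scaffold genes *Sec16a* and *Sec16b* that mark ER exit sites. Among the cargo adaptors, *Sec24a* had no peak, *Sec24b* had 1 in *Sirt7*-/- replicate 3, *Sec24c* had 1 in replicate 4 of each genotype, and *Sec24d* had peaks in *Sirt7*-/- replicates 2 and 3. The *Sec24c* peak was 664 bp wide and ranked 1927 of 2591 in the *Sirt7*-/- list, and was 371 bp wide and ranked 286 of 294 in the WT list. The *Sec24d* peaks were narrow (217 and 222 bp), near the bottom of their lists (2274 of 2840 and 1981 of 2045) and centred 2840 and 3059.5 bp downstream of the start of the gene. The only start of *Sec24d* with a RefSeq promoter entry lies 2695 bp downstream, and the same peaks were centred 145 and 364.5 bp beyond it. These peaks adjoined and did not overlap. None of the 3 *Sec22* genes was called, nor was *Sec23ip*.

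Of the 6 Arfs, 5 (83.3%, all starts 20.3%) were called in at least 1 *Sirt7*-/- sample, *Arf2* being the exception. *Arf1*, which lies on the minus strand of chromosome 11 from 59211412 to 59228267, had peaks of 733, 536 and 561 bp in *Sirt7*-/- replicates 2, 3 and 4, ranked 937 of 2840, 365 of 2045 and 126 of 2591. In WT replicate 2 its peak was 455 bp wide and ranked 482 of 906. That peak, from 59227722 to 59228176, lay where the *Sirt7*-/- peaks did, of which the one in replicate 2 ran from 59227493 to 59228225. *Arf3*, also of class I, had peaks of 727, 416 and 567 bp in the *Sirt7*-/- samples and 617 bp in WT replicate 2, with ranks of 997 of 2840, 362 of 2045 and 1397 of 2591 and of 699 of 906. The WT peak of *Arf3* was therefore wider than 2 of its 3 *Sirt7*-/- peaks. *Arf4*, a class II Arf of the early secretory pathway, had peaks of 477, 231 and 1130 bp and ranks of 660, 1726 and 98, and its widest peak alone covered the start. *Arf5*, of the same class, was called in *Sirt7*-/- replicate 4. *Arf6*, which acts at the plasma membrane, had peaks of 787 and 354 bp in *Sirt7*-/- replicates 3 and 4, ranked 749 of 2045 and 193 of 2591, with midpoints at -98 and -381.5 bp from its start, where minus is upstream, unlike the rest of the family.

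Among the endocytic Rabs, *Rab5a*, which governs fusion of early endosomes, lies on the plus strand of chromosome 17 with its start at 53479234. It had the widest peak of the set, 1213 bp in *Sirt7*-/- replicate 2, and peaks of 450 and 1023 bp in replicates 3 and 4. In WT replicate 2 its peak was 548 bp wide and ranked 396 of 906, and the *Sirt7*-/- peaks ranked 480 of 2840, 547 of 2045 and 276 of 2591. The peaks of *Sirt7*-/- replicates 2 and 4 held all 300 bases of the *Rab5a* window printed above, whereas the peaks of *Sirt7*-/- replicate 3 and WT replicate 2 began downstream of it. *Rab5b* was called in 1 *Sirt7*-/- sample and *Rab5c* in none. *Rab14*, of traffic between endosomes and Golgi, had peaks of 569, 408 and 665 bp in the *Sirt7*-/- samples and 513 bp in WT replicate 2, centred 466 to 534.5 bp downstream of its start in all 4. It ranked 1562 of 2840, 1418 of 2045 and 973 of 2591 in the *Sirt7*-/- lists and 550 of 906 in WT. *Rab21* and *Rab31* were called in 2 *Sirt7*-/- samples each and *Rab22a* in 1, which makes 6 of 10 early endosome Rabs (60%, all starts 20.3%). *Rab4a*, *Rab4b* and *Rab20* had no peak. The *Rab21* peaks, at 1854.5 and 1833 bp downstream, lay 26.5 and 5 bp from the only start of that gene with a RefSeq promoter entry. *Rab7*, the GTPase of late endosomes, was called once, in *Sirt7*-/- replicate 2, with a peak of 302 bp at rank 2165 of 2840.

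In recycling and exocytosis, *Rab10*, which delivers membrane to the cell surface, was called in 4 samples. Its peaks were 429, 492 and 330 bp wide in *Sirt7*-/- replicates 2, 3 and 4 and 209 bp in WT replicate 4. It ranked 2145 of 2840, 217 of 2045 and 654 of 2591 in the *Sirt7*-/- lists and 119 of 294 in the WT list. *Rab12*, linked to the turnover of recycling receptors, had peaks of 288, 915 and 270 bp with ranks of 2391, 1516 and 2535, the last close to the end of its list. *Rab35*, of fast recycling, had a peak of 358 bp ranked 1708 of 2591 in *Sirt7*-/- replicate 4 and one of 214 bp ranked 43 of 294 in WT replicate 4, which was the best placed WT call of the set. *Rab11a* and *Rab11b*, of the slow recycling route, had a peak in *Sirt7*-/- replicate 4 only, and *Rab13* in *Sirt7*-/- replicate 3. The *Rab11a* peak was 295 bp wide and ranked 1726 of 2591. Of the 11 Rabs of this group, 6 (54.5%, all starts 20.3%) were called in at least 1 *Sirt7*-/- sample. *Rab8a* and *Rab8b*, of traffic to the cell surface, had none.

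The remaining Rabs were put into groups by role after the calls had been seen, as were the roles above, so the counts per group are only a listing. None of the 8 Rabs of regulated secretion (*Rab3a* to *Rab3d*, *Rab26*, *Rab27a*, *Rab27b* and *Rab37*), whose best known places are synapses, glands and blood cells, was called in any sample, and neither was any of the 3 Rabs of lysosome-related organelles (*Rab29*, *Rab32* and *Rab38*). Of the 3 Rabs with a role at the cilium, *Rab34* was called in 2 *Sirt7*-/- samples, *Rab28* in 1 and *Rab23* in none. Among 6 further Rabs with no such group (*Rab36*, *Rab39*, *Rab40b*, *Rab40c*, *Rab42* and *Rab44*), 0 were called. Since 79.2% of all starts had no peak in any sample, a count of 0 in groups of this size is near the background. Peak lists do not show whether these genes were expressed.

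**Figure D3:**
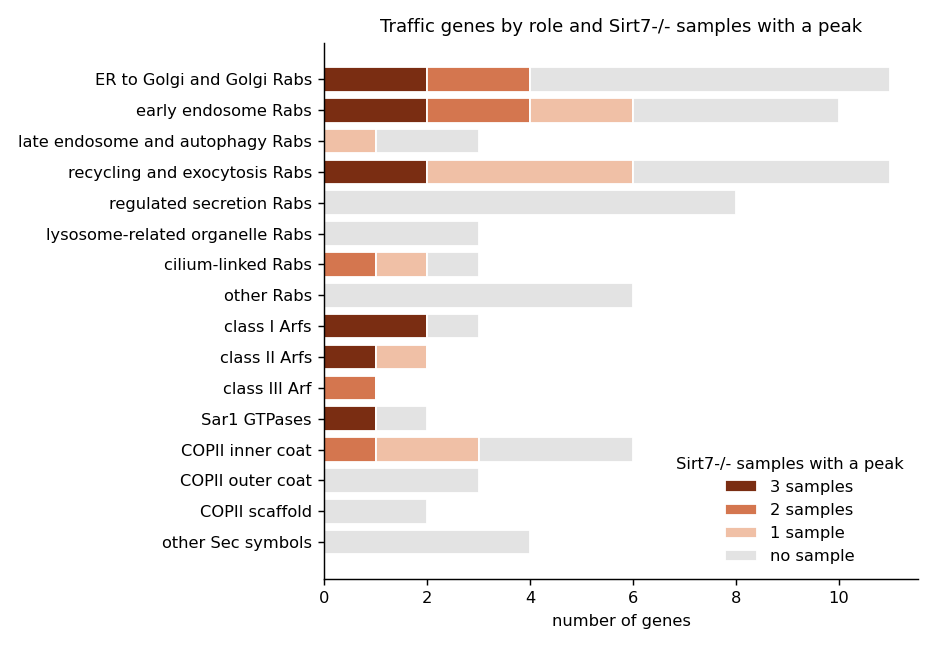
Number of traffic genes in each role group, split by the number of *Sirt7*-/- samples with a peak (dark to light for 3, 2 and 1, grey for none). Groups with no coloured bar are the Rabs of regulated secretion (8 genes), of lysosome-related organelles (3) and without a group (6), the COPII outer coat (3) and scaffold (2), and the other Sec genes (4).

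The set has 18 groups of at least 2 genes with the same stem, and in 10 of them all genes were called in the same number of *Sirt7*-/- samples. That number was 0 in 9 of the 10. Since 64.1% of the traffic genes and 79.2% of all starts had no peak in any sample, the 10 groups do not show agreement between relatives. Of the 18 groups, 9 had no gene called in a *Sirt7*-/- sample, 5 had a single gene called and 4 had several. The single genes were *Rab1a*, *Rab2a*, *Rab6a*, *Rab7* and *Sar1a*. In the Rab11 pair alone both genes were called, *Rab11a* and *Rab11b*, each in 1 sample. The 3 pairs with 3 samples against 0 were Rab1, Rab2 and Sar1.

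Most peaks lay just inside the genes. At the traffic genes the median midpoint was 344, 267.5 and 307.5 bp downstream of the start in *Sirt7*-/- replicates 2, 3 and 4, against 284, 283 and 310.5 bp over all promoter peaks of the same lists. It lay downstream at 17 of 18, 15 of 18 and 17 of 19 genes, against 77.6, 77.0 and 77.6% over all. In WT the midpoint was downstream at 4 of 4 genes in replicate 2 and 3 of 3 in replicate 4. For each peak, the nearest start of its gene with a RefSeq promoter entry was also taken. At the 25 genes with an entry, 53 of 55 peaks then had their midpoint downstream, 49 of them between 50 and 600 bp. That count leaves out *Rab2a*, *Rab30* and *Arf6*, which have no entry. From the gene start, the *Rab2a* midpoints were downstream, but those of *Rab30* (-119 and -421.5 bp) and *Arf6* (-98 and -381.5 bp) were upstream. The nearest start was not taken for all genes, so this count has no background. No traffic gene had a peak elsewhere in its body. At the edge of the window, the near end of the *Sec24d* peak in *Sirt7*-/- replicate 3 lay 2949 bp from the start, and *Rab19* was added to the genes called in at least 2 *Sirt7*-/- samples only when the window was widened to 5000 bp.

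**Figure D4:**
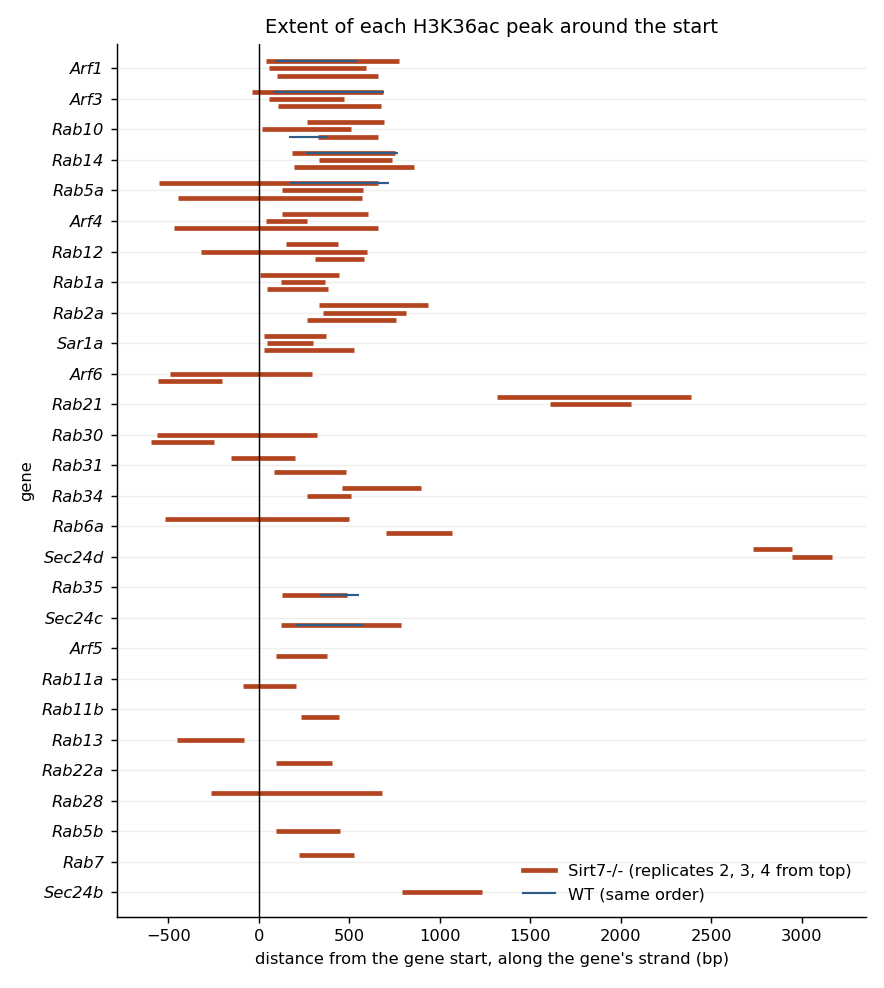
Extent of each H3K36ac peak in bp from the start of its gene, along the strand, for the 28 called traffic genes; thick lines are *Sirt7*-/- and thin lines WT samples, in the order of replicates 2, 3 and 4 from the top of each row. Most lines begin right of the start at 0, the WT lines overlie or adjoin *Sirt7*-/- lines, and *Rab21* and *Sec24d* lie furthest downstream.

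Some calls are shared with another start. A different gene was nearer to the midpoint at *Sar1a* (*1700022H01Rik*), *Rab30* (*4632427E13Rik*), *Rab13* (*Rps27*, a ribosomal protein gene), *Rab5b* (*Pmel*), *Rab11b* (*Gm17251*) and, in *Sirt7*-/- replicate 4, *Rab6a* (*Mrpl48*). When each peak was counted for its nearest start only, the mean of the *Sirt7*-/- samples was 15.3 genes. In replicates 2, 3 and 4 this was 21.8, 17.9 and 19.2% of the traffic genes. Over all starts the shares fell as well, to 11.1, 8.17 and 9.83%.

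The median peak width at the traffic genes was below that of all promoter peaks in each *Sirt7*-/- list, a difference that was not tested. In WT it was above in replicate 2 and below in replicate 4. At these genes the peaks of the 3 *Sirt7*-/- lists had median widths of 458, 429.5 and 367 bp, against 492.5, 458.5 and 469 bp over all promoter peaks, and 530.5 bp in WT replicate 2 and 214 bp in WT replicate 4, against 376 and 300 bp. The median rank was 46.7, 50.6 and 37.6% of the list in the *Sirt7*-/- samples, close to the middle, and 48.0, 49.1 and 47.4% over all promoter peaks. The calls thus ranged from the top 1% of a list (*Sar1a* and *Rab1a* in replicate 2, at 0.669 and 0.880%) to its end (*Rab6a* and *Rab12* in replicate 4, at 98.0 and 97.8%).

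Promoter sequence differed with the calls. RefSeq promoter windows of 300 bases were found for 66 of the 78 genes and for 16456 of all 20256. The ratio of observed to expected CpGs, which is near 1 in CpG islands and low in most of the genome, had a median of 0.787 over the 66 and 0.597 over all windows. Among the traffic genes it was 0.774 at the 41 with no *Sirt7*-/- peak, 0.725 at the 11 called in 1 sample, 0.857 at the 5 called in 2 and 0.969 at the 9 called in 3. Over all windows the same medians were 0.461, 0.832, 0.867 and 0.890. Uncalled traffic genes were therefore richer in CpG than uncalled genes at large. When windows were split at a ratio of 0.6, a division made after the values were seen, 54 of the 66 traffic genes were in the richer class, and 23 of these (42.6%) had a peak in a *Sirt7*-/- sample, against 35.4% of all windows of that class. For at least 2 samples the shares were 24.1 and 19.5%. In the poorer class, 2 of 12 traffic genes (*Rab34* and *Rab5b*) had a *Sirt7*-/- peak (16.7%), against 5.41%. The share of traffic genes was thus above that of all windows in both classes, in the poorer one on 2 genes. Of these, *Rab5b* had a ratio of 0.596, just under the split, and its peak lay nearer to the start of *Pmel*. The *Rab34* window was that of the gene start, whereas its peaks lay nearest to a RefSeq start 321 bp downstream. Over all windows the median ratio rose with the number of calling samples, while among the traffic genes it was lowest at those called once. The part of CpG content in the calls was not tested.

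**Figure D5:**
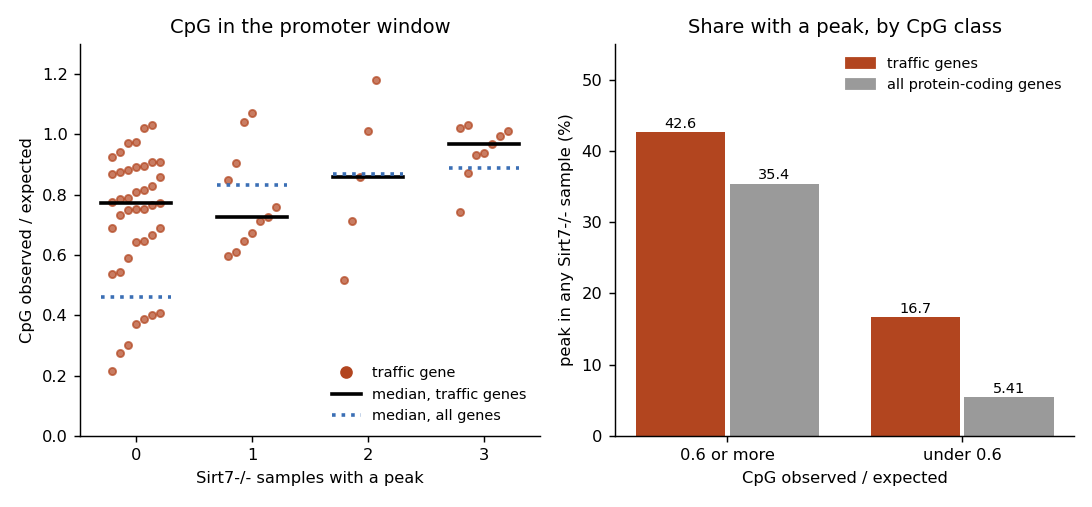
Left, ratio of observed to expected CpGs in the promoter window of the 66 traffic genes (points) by number of *Sirt7*-/- samples with a peak, with their median (solid line) and that of all genes (dotted line); right, share (%) with a peak in any *Sirt7*-/- sample by CpG class. The medians at 3 samples are 0.969 and 0.890, and in the richer class 42.6% of traffic genes and 35.4% of all genes had a peak.

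The short motifs searched on both strands in the same windows were GGGCGG (the Sp1 GC box), CCGGAAGT (ETS), GCATGCGC (NRF1), TGACGTCA (the cAMP element), AAGATGG (YY1), TATAAA (the TATA box), CCAAT (the CCAAT box), TGACGTGG (an element of the unfolded protein response) and CACGTG (the E-box). The GC box was found in 72.7% of the 66 windows and 47.3% of all. By number of calling *Sirt7*-/- samples it was found in 68.3% (none), 72.7% (1), 60% (2) and 100% (3) of the traffic genes, the last being 9 genes, and in 41.0, 71.3, 72.1 and 72.9% of all genes. TGACGTGG was found at 4 traffic genes, *Arf1*, *Sec16b*, *Sec23a* and *Sec24d* (6.06%), against 0.681% of all windows. Of these 4 genes, *Arf1* and *Sec24d* were called and *Sec16b* and *Sec23a* were not. CCAAT was found in 45.5% (all 39.1%), AAGATGG in 13.6% (6.4%), CACGTG in 13.6% (7.97%), CCGGAAGT in 9.09% (5.44%), GCATGCGC in 4.55% (3.65%), TATAAA in 4.55% (13.5%) and TGACGTCA in 3.03% (2.4%). A match is a run of letters and not a site of binding.

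Genes that work with the set were counted in the same way. Over 215 genes in 11 lists, 81 (37.7%) had a peak in at least 1 and 35 (16.3%) in at least 2 *Sirt7*-/- samples, against 20.3 and 10.9% of all starts, and 24 (11.2%, all starts 5.43%) were called in a WT sample. *Tbck*, a gene of the Rab GTPase-activating list, was called in 3 WT and 2 *Sirt7*-/- samples, and *Dennd5b*, *Tbc1d22a* and *Arfgap2* were called in WT alone. For the ER translocon, the channel through which proteins enter the ER, all 6 genes were called in at least 2 *Sirt7*-/- samples, *Sec62* and *Sec63* in all 3. Of 23 SNAREs, which drive fusion, 14 were called in at least 1 and 7 in at least 2, with *Bet1l*, *Use1* and *Gosr2* in all 3. Among 20 genes of ER exit and cargo receptors the counts were 8 and 4, and *Tfg*, *Lman1* and *Ergic2* were called in all 3. In each of these 3 lists, 3 genes were also called in a WT sample (all starts 5.43%). Among them were *Sec61a2*, *Sec61b*, *Sec63*, *Gosr2* and *Ergic2*. Regulators of the GTPases were nearer to all starts in the second count, with 2 of 26 Rab exchange factors, 5 of 38 Rab GTPase-activating proteins, 4 of 36 Arf regulators, 2 of 17 Rab effectors and 2 of 21 Arf-like GTPases called in at least 2 samples. In at least 1 sample the counts of these lists were 9, 12, 12, 5 and 8. Of the 9 COPI genes, 4 were called in at least 1 and *Copb1* alone in 2. Of 13 TRAPP genes, which activate RAB1, *Trappc4* was called in all 3 and 1 further gene once. Of the 6 genes of Rab chaperones and prenylation, *Gdi2*, which extracts Rabs from membranes, was called in all 3 and the others in none.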

How the data were processed

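The 6 deposited lists were H3K36ac ChIP-seq broad peaks of 3 WT and 3 *Sirt7*-/- samples. The input libraries entered only through the peak calling by the authors and are not analysed here. Per the labels and methods, the authors used Trim Galore 0.6.6 for trimming and Bowtie2 2.4.4.1 for alignment to mm10, kept unique, non-duplicated reads of mapping quality 30 or more, and ran MACS2 2.2.5 on each sample against its own input with a broad cutoff of 0.1, without pooling. Spike-in nucleosomes were added, and no factor from them was applied. The authors' columns are a score, a fold over input (a ratio), and a -log10 p and -log10 q. No use was made of the score, and the others served to rank or filter within a list. Depth after filtering is unknown here, so the precision of a call is unknown too.

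Members and lists were chosen with earlier results of these data known. The role groups, the CpG classes and the alternative that adds every RefSeq start were set after values were seen. Gene starts came from the RefSeq table of GRCm38.p6, with 1 start per gene. Strand came from the RefSeq promoter table (66 traffic genes) or by symbol from GENCODE M39 (12 genes), whose GRCm39 coordinates were not used. Without a strand, 405 of 20661 genes were left out. Peak width and rank are given in every calling sample for genes called in all 3 *Sirt7*-/- or in any WT sample, plus *Rab1a*, *Rab5a*, *Rab7*, *Rab11a*, *Arf1*, *Arf6*, *Sar1a*, *Sar1b*, *Sec13* and *Sec31a*. Every further gene with a peak is named with its calls, and some genes without a peak are not named. Values given for further genes were picked after they were seen. Ranks follow the -log10 q, then the -log10 p, then the fold. Protein features were not analysed here. The assignment of peaks to starts was tested on simulated data. Python 3.11.15, pandas 2.3.3, NumPy 2.4.6 and matplotlib 3.10.9 were used.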

Additional observations from a re-analysis of the deposited data

How the results depend on the processing

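The results rest on which peaks MACS2 called in lists of very unequal length. Counts of genes with a peak in all 3 *Sirt7*-/- and no WT samples, in at least 2 *Sirt7*-/- samples and in at least 1 WT sample were 5, 17 and 7. They became 1, 4 and 3 with peaks of at least 500 bp (the 1 was *Arf1*, whose narrower WT peak the filter removed, and none of the 5 stayed), 0, 1 and 1 with the 64 strongest peaks of each sample (*Sar1a* was the 1 in *Sirt7*-/- and *Rab35* the 1 in WT), and 2 and 9 for the first 2 counts at a -log10 p of at least 5.99 (*Rab1a* and *Sar1a* being the 2). With a -log10 q of at least 2 they were 4 (*Rab1a* and *Sar1a* of the 5, with *Arf3* and *Rab14*), 10 and 4. The mean per *Sirt7*-/- sample, 18.3 genes, was then 12, and it was 6 with the wider peaks, 1 with 64 peaks, 10 with the common -log10 p, 17 and 19 with windows of 1000 and 5000 bp, and 15.3 with the nearest start only. The share called in at least 2 *Sirt7*-/- samples was 2.0 times that of all starts, 1.08 times with the wider peaks and 9.62 times with 64 peaks, where it rests on 1 gene. It was 1.93 times at a -log10 q of at least 2, 2.06 with the common -log10 p and 2.14 with the nearest start only. With windows of 1000 and 5000 bp it was 1.92 and 2.03. Calls over all starts fell too, at a -log10 q of at least 2 to 8.21, 7.65 and 8.20% in *Sirt7*-/- replicates 2, 3 and 4. The median width, 418.2 bp, was 514.7 bp at a -log10 q of at least 2, and it was not computed with 64 peaks because 1 *Sirt7*-/- sample then had no traffic gene.

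Leaving out 1 sample at a time gave 5 to 9 genes in all *Sirt7*-/- and no WT samples (9 without WT replicate 2, 8 without *Sirt7*-/- replicate 4), 12 to 13 in at least 2 *Sirt7*-/- samples, 3 to 7 in WT (3 without WT replicate 2, 4 without WT replicate 4), means of 18 to 18.5 in *Sirt7*-/- and 1.5 to 3.5 in WT (main 2.33, and 0.333 with 64 peaks), a ratio of 1.93 to 2.36 and a median width of 398.2 to 443.8 bp. No paired analysis was made because no test was made. Every sample is a different mouse, and whether equal replicate numbers mark a shared batch is not known here.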
